A study of Homo sapiens with 4 samples.

Results

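The 37 genes described here encode the core machinery that builds an autophagosome and delivers it to the lysosome. They were taken by name from the table of gene counts of MHCC97H cells, an established human hepatocellular carcinoma line. All 37 were found among 61541 gene IDs, and all 37 were measured well enough to be among the 16863 genes tested. The rule that lists them uses gene names and no measured value, although earlier results of these data were known when it was written. The study depleted UBXN1, a ubiquitin-binding cofactor of the segregase p97 (VCP), with short hairpin RNA. Total RNA was sequenced from 2 control libraries (shCon) and 2 knockdown libraries (shUBXN1), which share the cell line. Hairpins were carried by the vector pLKO.1, and the study's methods name the control shRFP. Which hairpin the shUBXN1 libraries carry is not given in the sources used here, so both libraries may stand for a single hairpin, and the labels do not say whether the libraries came from separate cultures. The p-values therefore measure the spread between these libraries, which may be technical.

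Autophagy encloses cytoplasm in a membrane that grows, closes and fuses with the lysosome. A kinase complex built on ULK1 or ULK2 starts the process, and a lipid kinase complex built on PIK3C3 and BECN1 then marks the membrane with the lipid PI3P. Lipid transfer proteins and PI3P-binding WIPI proteins let the membrane grow, a pair of ubiquitin-like conjugation systems attach LC3 and its relatives to it, and SNARE proteins with their tethers fuse the closed vesicle with the lysosome. In hepatocytes autophagy is known for supplying nutrients in starvation and for clearing damaged organelles.

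UBXN1 itself stood at 67.1 and 77.3 CPM in shCon and 16.8 and 18.5 CPM in shUBXN1, where CPM is the count scaled to the size of the library after TMM. The knockdown libraries kept 24.5% of the control level (log2 fold change -2.03, standard error 0.0963, adjusted p = 9.98e-10 by edgeR, quasi-likelihood F-test, Benjamini-Hochberg over all genes tested). Libraries held 23373700 to 27380508 counts. Mitochondrially encoded genes took 5.28% and 5.59% of counts in shCon and 7.43% and 8.27% in shUBXN1. Hepatic identity was only weakly borne out. KRT8, KRT18 and HNF4A were well expressed, at means of 3410, 922 and 59.8 CPM in shCon. The other hepatocyte markers reported were lower in shCon, from ALB (17.6 CPM) and APOB (14.4 CPM) to TTR (1.44 CPM) and APOA1 (0.712 CPM). GPC3 had 0 counts in all 4 libraries. The summed level of 11 hepatocyte markers was 4367 and 4534 CPM in shCon against 3447 and 4038 CPM in shUBXN1, nearly all of it KRT8 and KRT18. Of the 10 tested, KRT18 and SERPINA1 rose, APOA1 and AFP did not pass, and 6 fell, among them FGB (log2 -4.02), TTR (-3.08), ALB (-1.97) and APOB (-1.85). Of 5 immune markers CD3E was at 0 and PTPRC had at most 4 counts, and the list summed to between 70.8 and 89.1 CPM, nearly all of it CD68. Of 4 endothelial markers CDH5 had at most 6 counts, and the list summed to 48.4 and 49.9 CPM in shCon against 92.6 and 99.5 CPM in shUBXN1 through KDR and PECAM1. The 5 fibroblast and stellate markers summed to at most 3.08 CPM. All 4 libraries are of the same cell line, so the marker lists describe genes that the line expresses. The part of these shifts in the values below was not tested. In bulk RNA, fewer cells of the line expressing a gene and less of its RNA per cell cannot be told apart.

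In the knockdown libraries the genes that rose lay mostly in initiation (ULK1, ULK2, ATG13 and RB1CC1) and in membrane supply and PI3P reading, where WDR45B fell. No conjugation gene passed by edgeR with TMM and all 4 libraries. Of the 37 genes, 15 rose, 5 fell and 17 did not pass an adjusted p of 0.05. With total count scaling 18 rose and 3 fell, and without shCon 1 or without shCon 2 the falls were also 3. Across all genes tested 56.2% passed (61.8% of protein-coding genes), 28.0% upwards and 28.2% downwards, and among the 37 genes 54.1% passed, 40.5% upwards and 13.5% downwards. Of protein-coding genes, which all 37 are, 29.7% passed upwards and 32.2% downwards. Thus the share of the 37 that passed was near that of all genes and below that of protein-coding genes. The share that rose was above that of either background. The median log2 fold change was 0.15, compared with 0.02 over all genes and -0.02 over protein-coding genes. It was 0.09 without shUBXN1 2, and 0.24 with total count scaling, which put the median of all genes at 0.10. The sizes were modest, since log2 fold changes ran from -0.56 to 1.18. By edgeR with TMM and all 4 libraries, ULK2, WIPI1 and TP53INP2 alone reached a fold change of 2 with an unadjusted p under 0.05, all upwards. Of all genes 17.9% did so (11.8% upwards and 6.09% downwards). With total count scaling 4 of the 37 genes reached it, all upwards. Over the alternative settings the log2 fold change of WIPI1 ran down to 0.94 and that of EPG5 up to 1.01. The knockdown libraries lay wholly above the controls in CPM for 20 genes and wholly below for 8, and the groups overlapped for 9. Over all genes tested 78.0% did not overlap, 39.4% higher and 38.6% lower.

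**Figure D1:**
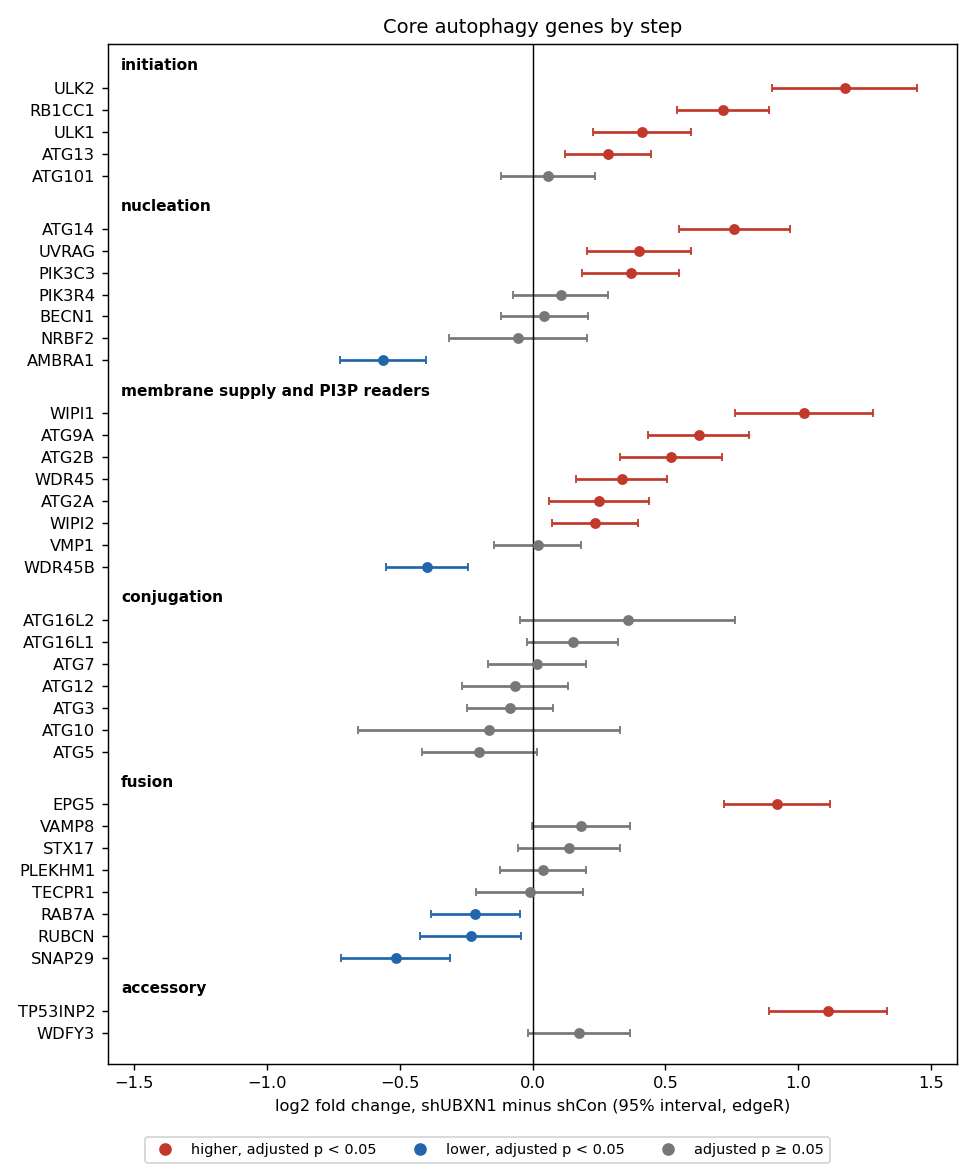
Log2 fold change of each of the 37 genes, shUBXN1 minus shCon, with its 95% interval from edgeR, grouped by step of autophagy (2 libraries a group). Points are coloured by direction where the adjusted p is under 0.05. In initiation 4 of 5 points lie to the right of 0 in colour, and all 7 conjugation points are grey.

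The steps differed in how many of their genes passed. In initiation 4 of 5 genes rose and 0 fell (median log2 fold change 0.41). In membrane supply and PI3P reading 6 of 8 rose and 1 fell (median 0.29), where the rises were 3 without shCon 1 and 4 without shCon 2. In nucleation 3 of 7 rose and 1 fell (median 0.11, but -0.01 without shUBXN1 2 and 0.20 without shUBXN1 1). In fusion 1 of 8 rose and 3 fell (median 0.01, or -0.08 with the GC correction), where the falls were 1 without shCon 1, without shCon 2 or with total count scaling. In conjugation 0 of 7 passed in either direction by edgeR with TMM and all 4 libraries (median -0.07, range -0.20 to 0.36). With total count scaling 1 rose, and the median was 0.02 with total count scaling or the GC correction. The share passing was 80% in initiation, 87.5% in membrane supply and PI3P reading, 57.1% in nucleation, 50% in fusion and 0% in conjugation. Of all genes tested 56.2% passed, so nucleation and fusion stood near the share of all genes. These are counts over few genes, and the difference between steps was not tested.

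The proximal promoters are shown because the 6 tested transcription factors of autophagy genes include the MiT family, which binds the E-box CACGTG. Of these 6, 4 rose with the knockdown (66.7%, compared with 28.0% of all genes tested), among them MITF at only 8 to 72 counts a library. A link between these factors and the motif was not tested. RefSeq promoters on GRCh38.p14, from 250 bases before to 50 after the start, were matched for 31 of the 37 genes. RB1CC1, UVRAG, WDR45B, STX17, EPG5 and WDFY3 had no entry. CACGTG was found on either strand in 4 of the 31 promoters (12.9%) and in 2030 of 27305 promoters of all genes (7.43%). The longer form GTCACGTG, which contains the E-box, was found in the same 4 promoters (12.9%) and in 690 of all promoters (2.53%). Of these 4 genes ATG14 rose, SNAP29 fell, and NRBF2 and ATG3 did not pass. Hence genes with the motif stood on both sides of 0. The sites are printed in the direction of the gene, with the E-box in capitals, at chr14:55411836-55411861 (minus strand) for ATG14, chr10:63133078-63133097 (plus) for NRBF2, chr3:112561965-112561990 and chr3:112561942-112561967 (minus) for ATG3, and chr22:20858813-20858838 (plus) for SNAP29.
ATG14: aacaaaatccCACGTGactggctctc
NRBF2: tcctCACGTGacttcagtgt
ATG3 site 1: tttctcacgtCACGTGccgggagagt
ATG3 site 2: agtctagtgtCACGTGaggccccggt
SNAP29: gctttcccgcCACGTGacctctcagt
The FOXO motif GTAAACA and the ATF4-type motif TGATGNAA were in 0 of the 31 promoters on either strand, compared with 3.41% and 3.67% of all promoters. That says only that these letters are not in these windows.

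The initiation complex rose in all but 1 of its subunits. ULK2 (ENSG00000083290, chr17:19770829-19867936), the less studied of the 2 initiating kinases, stood at 7.46 and 7.45 CPM in shCon and 16.7 and 17.0 CPM in shUBXN1. Both knockdown libraries were more than 2 times as high as either control, and replicates were nearly identical. Its fold change was 2.26 (log2 1.18, standard error 0.128, 95% interval 0.90 to 1.45, adjusted p = 2.69e-06 by edgeR with Benjamini-Hochberg adjustment), the largest of the 37. ULK1 (chr12:131894622-131923150), the principal kinase of the pathway, stood at 74.4 and 69.7 CPM in shCon and 104 and 88.0 CPM in shUBXN1. The groups did not overlap, although shUBXN1 1 carried more of the difference than shUBXN1 2 (log2 fold change 0.41, standard error 0.0863, adjusted p = 0.000981 by edgeR). With each library corrected for its trend on GC content the log2 fold change of ULK1, whose transcript is 64.2% GC, was 0.25 (adjusted p = 0.0239 by edgeR).

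RB1CC1, also called FIP200, is the scaffold on which the complex assembles, and stood at 103 and 90.5 CPM in shCon and 154 and 164 CPM in shUBXN1. Each knockdown library exceeded both controls, by 1.64-fold on average (log2 0.72, standard error 0.0808, 95% interval 0.54 to 0.89, adjusted p = 3.73e-06 by edgeR). ATG13, the adaptor that mTORC1 phosphorylates to hold initiation back, stood at 95.3 and 91.9 CPM in shCon and 109 and 119 CPM in shUBXN1 (log2 fold change 0.28, adjusted p = 0.00506 by edgeR). Its call was lost without shCon 2 (log2 fold change 0.24, adjusted p = 0.165). ATG101, the partner that stabilises ATG13, was the exception at 71.9 and 81.9 CPM in shCon and 77.3 and 82.8 CPM in shUBXN1. Its groups overlapped, and the 95% interval of its log2 fold change, -0.12 to 0.24, lay below the change of RB1CC1. That interval overlapped those of ATG13 (0.12 to 0.45) and ULK1 (0.23 to 0.60).

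In nucleation the catalytic subunit PIK3C3 rose, as did ATG14 and UVRAG, while the membrane-anchored PIK3R4 did not pass. ATG14 (chr14:55366391-55411830), which directs the kinase to the site where autophagosomes form, stood at 19.2 and 17.6 CPM in shCon and 30.6 and 31.8 CPM in shUBXN1. This 1.69-fold rise (log2 0.76, standard error 0.0976, 95% interval 0.55 to 0.97, adjusted p = 1.36e-05 by edgeR) was the largest of the step. Exons of FBXO34 on the opposite strand cover 20.8% of the exon bases of ATG14, and whether strand was used in counting is not given, so its level is uncertain to that extent. FBXO34 itself had 720 and 641 counts in shCon and 658 and 687 in shUBXN1. UVRAG, which takes the place of ATG14 in the endosomal form of the complex, stood at 27.6 and 24.9 CPM in shCon and 34.8 and 34.5 CPM in shUBXN1 (log2 fold change 0.40, adjusted p = 0.00191 by edgeR). That call was lost without shCon 2 (0.31, adjusted p = 0.0738).

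PIK3C3, the catalytic subunit VPS34, stood at 30.9 and 33.5 CPM in shCon and 41.1 and 42.0 CPM in shUBXN1 (log2 fold change 0.37, interval 0.19 to 0.55, adjusted p = 0.00197 by edgeR). BECN1, the regulatory subunit that BCL2 proteins bind, stood at 61.2 and 59.3 CPM in shCon and 60.2 and 64.1 CPM in shUBXN1, with overlapping groups. The 95% interval of its log2 fold change, -0.12 to 0.21, lay wholly below the value for ATG14 but overlapped the interval of PIK3C3. PIK3R4, the membrane-anchored pseudokinase VPS15, and NRBF2, an accessory subunit of the ATG14 complex, had log2 fold changes of 0.11 (interval -0.07 to 0.28) and -0.06 (interval -0.31 to 0.20), and neither passed. AMBRA1 (chr11:46396414-46594125), which binds BECN1 and serves as a substrate receptor of a cullin ubiquitin ligase, was the only gene of the step to fall. It stood at 61.9 and 63.8 CPM in shCon and 42.4 and 42.5 CPM in shUBXN1, 67.6% of the control level (log2 -0.56, standard error 0.0758, adjusted p = 2.05e-05 by edgeR), which was the deepest fall of the 37. Among the subunits that compete for the kinase, the ratio of ATG14 to UVRAG in TPM, a level per gene length, was 0.756 and 0.769 in shCon and 0.956 and 1.0 in shUBXN1, a ratio chosen after its values were seen. The 2 groups did not overlap, and an exact two-sided permutation test gave p = 0.333, the smallest that 2 against 2 libraries allow.

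Among the genes that supply and read the membrane, those higher in shUBXN1 included the transmembrane protein ATG9A and both lipid bridges. ATG9A (chr2:219219380-219229717), the lipid scramblase carried on small seed vesicles, stood at 24.6 and 23.5 CPM in shCon and 36.6 and 37.6 CPM in shUBXN1. Both knockdown libraries were above both controls by a margin many times the gap between replicates (log2 0.62, standard error 0.0885, adjusted p = 3.37e-05 by edgeR). A further protein-coding gene on the same strand, ENSG00000284820, covers 38.8% of its exon bases and had 716 and 670 counts in shCon and 940 and 885 in shUBXN1, so reads could be split between them. ATG2B, 1 of the 2 rod-shaped proteins that move lipid into the growing membrane, stood at 23.6 and 24.4 CPM in shCon and 35.1 and 33.7 CPM in shUBXN1 (log2 0.52, standard error 0.0895, adjusted p = 0.000196 by edgeR). Its paralog ATG2A stood at 38.6 and 37.8 CPM in shCon and 48.5 and 42.2 CPM in shUBXN1, and this smaller rise (log2 0.25, standard error 0.0878, adjusted p = 0.0259 by edgeR) was not stable. It was lost under DESeq2, under limma on log2(TPM + 1), under the GC correction (0.09), and without shCon 1, shCon 2 or shUBXN1 1 (0.14 at the lowest).

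The WIPI family, beta-propeller proteins that bind PI3P, did not move as a block. WIPI1 (chr17:68420948-68457513) stood at 10.1 and 9.36 CPM in shCon and 18.9 and 20.8 CPM in shUBXN1, about double (fold change 2.03, log2 1.02, standard error 0.121, 95% interval 0.76 to 1.28, adjusted p = 6.29e-06 by edgeR). Exons of ARSG on the opposite strand cover 24.4% of its exon bases, and ARSG had 105 and 94.5 counts in shCon and 82.2 and 97.6 in shUBXN1, below those of WIPI1. WIPI2, which recruits ATG16L1, stood at 71.6 and 69.8 CPM in shCon and 80.2 and 86.3 CPM in shUBXN1 (log2 0.24, standard error 0.0750, adjusted p = 0.0155 by edgeR), and its call was lost without shCon 1, shCon 2 or shUBXN1 2 (lowest value 0.17). WDR45, known as WIPI4 and bound by ATG2, stood at 57.9 and 64.7 CPM in shCon and 75.0 and 79.7 CPM in shUBXN1 (log2 0.34, standard error 0.0802, adjusted p = 0.00258 by edgeR), with the call lost without shCon 1 (0.26, adjusted p = 0.0588). WDR45B (chr17:82614562-82648553), known as WIPI3, went the other way at 224 and 224 CPM in shCon and 166 and 174 CPM in shUBXN1 (75.9% of control, log2 -0.40, standard error 0.0722, adjusted p = 0.000311 by edgeR). VMP1, an endoplasmic reticulum scramblase needed for the membrane to detach, stood at 281 and 267 CPM in shCon and 267 and 288 CPM in shUBXN1, with overlapping groups and an interval of -0.14 to 0.18.

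The conjugation genes form the ubiquitin-like cascade in which ATG7 activates, ATG3 and ATG10 transfer, and ATG12, ATG5 and ATG16L1 make up the ligase that places LC3. Of the 7 genes 0 passed by edgeR with TMM and all 4 libraries, 0 of 7 had an unadjusted p under 0.05 there, and DESeq2 and limma-voom called 0. ATG16L1 passed upwards with total count scaling and in limma on log2(TPM + 1), and ATG5 passed downwards without shUBXN1 2 (-0.32). ATG7, the activating enzyme, stood at 39.6 and 37.4 CPM in shCon and 37.1 and 40.9 CPM in shUBXN1. ATG5 stood at 26.3 and 27.2 CPM in shCon and 21.7 and 24.9 CPM in shUBXN1 (log2 -0.20, interval -0.42 to 0.01), and ATG12, its partner, at 40.7 and 38.4 CPM in shCon and 34.8 and 40.9 CPM in shUBXN1 (log2 -0.07, interval -0.26 to 0.13). ATG3 stood at 69.2 and 72.5 CPM in shCon and 64.9 and 68.8 CPM in shUBXN1 (log2 -0.08, interval -0.25 to 0.08). Apart from ATG10 and ATG16L2, whose low counts left wide intervals (-0.66 to 0.33 and -0.05 to 0.76), the intervals of this step stayed within -0.42 to 0.32. ATG16L1, which carries the ligase to the membrane, stood at 39.9 and 40.6 CPM in shCon and 43.4 and 46.0 CPM in shUBXN1 (log2 0.15, standard error 0.0804, interval -0.02 to 0.32, adjusted p = 0.125 by edgeR). Its paralog ATG16L2 stood at 4.84 and 4.94 CPM in shCon and 6.55 and 5.98 CPM in shUBXN1 (log2 0.36, standard error 0.189, adjusted p = 0.121 by edgeR). ATG10 had only 116 and 89 counts in the control libraries and 90 and 85 in the knockdown libraries. Antisense exons of VGLL4, at 3327 to 3753 counts a library, cover 18.1% of the exon bases of ATG7, which leaves its level uncertain.

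Fusion held 1 strong rise and 1 strong fall, and which direction had more calls changed with the processing. As reported, 1 rose and 3 fell, with total count scaling 2 rose and 1 fell, and the 2 directions were equal with the GC correction, in limma on log2(TPM + 1), with at least 10 counts in every library, and without shCon 1 or shCon 2. EPG5 (chr18:45800581-45967329), a tether that links autophagosomes to late endosomes and lysosomes, stood at 28.4 and 25.4 CPM in shCon and 53.8 and 48.0 CPM in shUBXN1. This was a 1.89-fold rise (log2 0.92, standard error 0.0926, 95% interval 0.72 to 1.12, adjusted p = 1.23e-06 by edgeR). SNAP29 (chr22:20859007-20891214), the SNARE that bridges STX17 on the autophagosome and VAMP8 on the lysosome, stood at 30.6 and 34.4 CPM in shCon and 22.5 and 22.9 CPM in shUBXN1 and so fell to 69.9% of control (log2 -0.52, standard error 0.0961, adjusted p = 0.000376 by edgeR). The intervals of the other SNAREs lay above the value for SNAP29. STX17 stood at 33.6 and 30.1 CPM in shCon and 35.2 and 34.8 CPM in shUBXN1 (interval -0.06 to 0.33) and VAMP8 at 42.8 and 45.8 CPM in shCon and 47.2 and 53.5 CPM in shUBXN1 (interval -0.00073 to 0.37), and neither passed. The TPM of SNAP29 was 0.539 and 0.678 times that of STX17 in shCon and 0.378 and 0.390 times in shUBXN1, a ratio chosen after its values were seen, and the groups did not overlap (exact two-sided permutation p = 0.333, again the smallest possible).

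RAB7A, the GTPase of late endosomes that recruits fusion tethers, stood at 403 and 403 CPM in shCon and 329 and 366 CPM in shUBXN1 (log2 -0.22, adjusted p = 0.0311 by edgeR), and RUBCN, which restrains the UVRAG form of the lipid kinase, at 34.1 and 32.1 CPM in shCon and 28.4 and 28.0 CPM in shUBXN1 (log2 -0.23, adjusted p = 0.0358 by edgeR). Both falls were small and unstable. RAB7A lost its call under total count scaling (-0.13), under the GC correction (adjusted p = 0.0509) and without shCon 1 (-0.22) or shCon 2 (-0.23). RUBCN lost it under 7 of 13 alternatives, among them without shCon 1 (-0.19) and without shCon 2 (-0.29), and 53.8% of its exon bases lie under an antisense lncRNA with at most 10.2 counts. PLEKHM1, an adaptor between RAB7 and the HOPS tether, and TECPR1, which binds the conjugate of ATG12 and ATG5, had log2 fold changes of 0.04 and -0.01 with overlapping groups. PLEKHM1 has a transcribed copy, PLEKHM1P1, with more counts than itself (2065 to 3448 against 1390 to 1557 a library), so its value is uncertain.

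Outside these steps, TP53INP2 (chr20:34704339-34713439), which shuttles from the nucleus to bring LC3 to forming autophagosomes, stood at 14.1 and 14.0 CPM in shCon and 32.0 and 28.8 CPM in shUBXN1. It rose 2.16-fold (log2 1.11, standard error 0.104, 95% interval 0.89 to 1.33, adjusted p = 5.98e-07 by edgeR), the smallest p of the 37 genes. WDFY3, or ALFY, a scaffold for the removal of protein aggregates, stood at 46.4 and 46.0 CPM in shCon and 56.7 and 47.7 CPM in shUBXN1, where shUBXN1 1 alone was clearly above the controls (log2 0.18, adjusted p = 0.110 by edgeR).

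**Figure D2:**
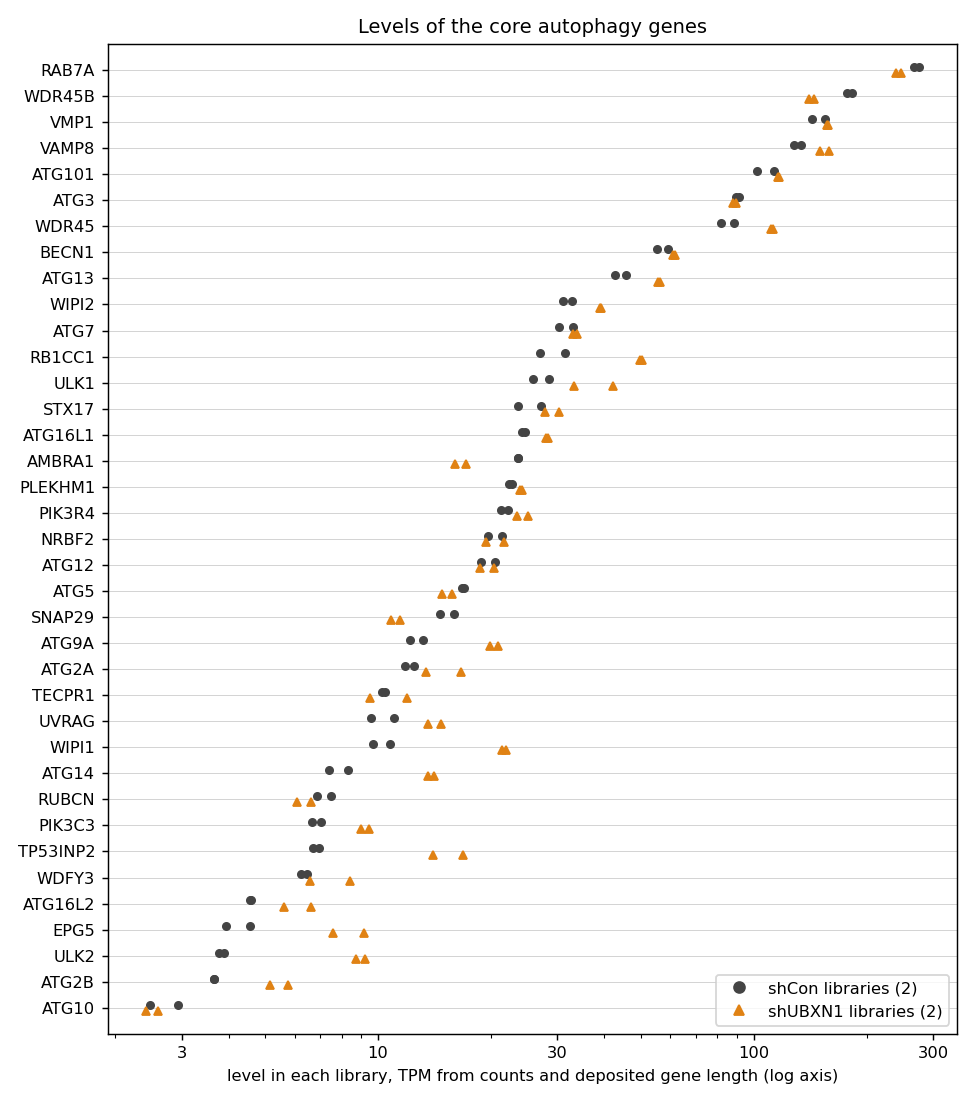
Level of each of the 37 genes in each of the 4 libraries, in TPM (scaled to gene length and library size) on a log axis, with shCon and shUBXN1 libraries in different colours. RAB7A is highest in both groups and ATG10 lowest, and the shift of ULK2, WIPI1 and TP53INP2 to the right stands out among the lower levels.

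On the TPM scale, which divides by gene length and so allows levels to be compared between genes, the 37 genes ran from 2.70 to 271 TPM in shCon. RAB7A was the highest, at a mean of 271 TPM in shCon and 243 in shUBXN1. It was followed by WDR45B (179.9 and 142 TPM), VMP1 (149 and 157 TPM) and VAMP8 (131 and 155 TPM). The lowest in shCon were ATG10 (2.70 TPM), ATG2B (3.66 TPM) and ULK2 (3.83 TPM). The 5 genes with the largest fold changes, ULK2, TP53INP2, WIPI1, EPG5 and ATG14, were all of low level in shCon, the highest being WIPI1 at 10.2 TPM, and ULK2 reached 9.01 TPM in shUBXN1. Summed over the step, the initiation genes gave 212 and 212 TPM in shCon and 274 and 264 TPM in shUBXN1. The conjugation genes summed to 192 and 189 TPM in shCon and 194 and 194 TPM in shUBXN1.

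Paralogs, in 5 pairs, allowed a comparison within each library that does not depend on scaling between libraries. ULK1 exceeded ULK2 7.32- and 6.87-fold in shCon and 4.56- and 3.80-fold in shUBXN1 on the TPM scale. The pool of both kinases together was 32.3 and 29.6 TPM in shCon and 51.5 and 42.0 TPM in shUBXN1, of which ULK2 made up 12% and 12.7% and then 18.0% and 20.8%. WIPI1 gained on WIPI2 by 0.79 on the log2 scale, and WDR45 gained on WDR45B by 0.73. The shift between ATG2A and ATG2B was -0.27, in favour of ATG2B, and that between ATG16L1 and ATG16L2 was -0.21, in favour of ATG16L2. In all 5 pairs the groups did not overlap, and in each pair the exact two-sided permutation test gave 0.333, the smallest p that 2 against 2 libraries allow. Lack of overlap was common, since the groups did not overlap in CPM for 78.0% of all genes tested.

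**Figure D3:**
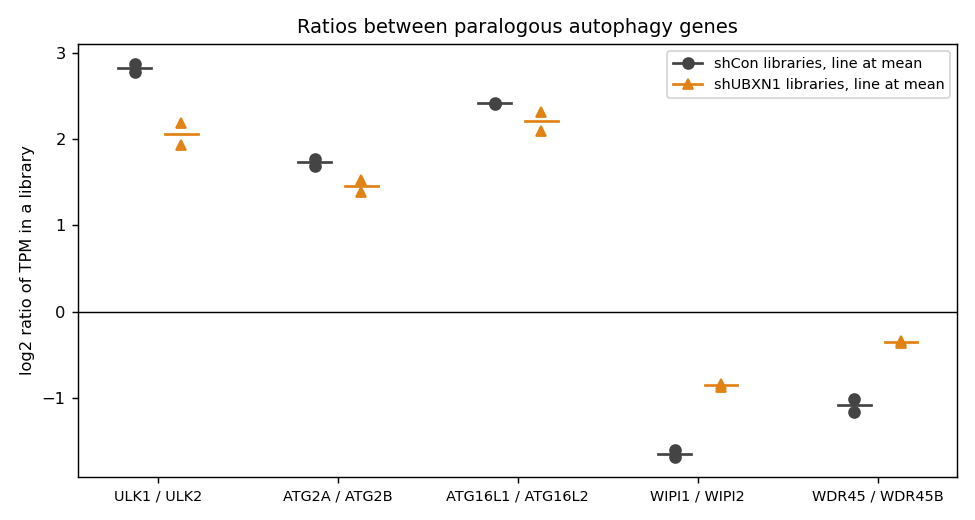
Log2 ratio of TPM between the members of each paralog pair, 1 point per library, for shCon and shUBXN1. The WIPI1 to WIPI2 and WDR45 to WDR45B ratios are higher in both shUBXN1 libraries and the ULK1 to ULK2 ratio is lower, with smaller gaps for the ATG2 and ATG16L pairs.

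Other genes of the pathway were counted in 6 lists of its regulators, substrates and partners. Of 57 tested, 26 rose, 12 fell and 19 did not pass (median log2 fold change 0.26), so 45.6% rose compared with 28.0% of all genes. The ATG8 family and the ATG4 proteases, which are the substrates and processors of the conjugation system, had 6 of 9 tested higher and 0 lower (median 0.57). Thus 66.7% of this list passed, compared with 56.2% of all genes tested. MAP1LC3A, an LC3 isoform, stood at 8.03 and 7.87 CPM in shCon and 22.5 and 22.6 CPM in shUBXN1 (log2 1.50, standard error 0.117, adjusted p = 1.01e-07 by edgeR). GABARAPL1 and MAP1LC3B, also ATG8 proteins, rose by log2 1.25 (standard error 0.0893) and 0.87 (standard error 0.0804). GABARAP and GABARAPL2 also rose, so every ATG8 tag that was tested rose. Of the proteases ATG4A rose, while ATG4B, ATG4C and ATG4D did not pass. Set beside the 0 of 7 conjugation genes, the ATG8 tags passed more often than the enzymes that attach them, a difference that was not tested.

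Control of initiation was represented by 19 genes of the mTORC1 and AMPK pathways, of which 10 rose and 5 fell (median 0.34). Thus 78.9% of this list passed, compared with 56.2% of all genes tested. SESN3, a sestrin that restrains mTORC1, had 15 and 4 counts in the control libraries and 115 and 93 in the knockdown libraries (log2 3.50, standard error 0.426, adjusted p = 8.02e-06 by edgeR). TSC1, of the complex that switches RHEB off, and PRKAB2, an AMPK subunit, rose by log2 0.75 (standard error 0.0744) and 0.73 (standard error 0.0741). The 5 that fell were SESN2, also a sestrin (log2 -0.63), the AMPK subunits PRKAA1 (-0.37), PRKAA2 (-0.34) and PRKAG1 (-0.29), and STK11 (-0.23). RPTOR, RHEB and MTOR were among the rises, at 0.57, 0.35 and 0.20. Of 6 transcription factors, 4 rose and 0 fell (66.7% passing, median 0.36). MITF had only 13 and 8 counts in the control libraries and 72 and 33 in the knockdown libraries (log2 2.36, standard error 0.485, adjusted p = 0.000835 by edgeR). In shCon 2 both SESN3 and MITF lay under the filter's minimum of 10 counts. They passed the filter only with the shUBXN1 libraries, where they were high, so their place among the rises depends on it. TFEB and TFE3, which activate lysosomal and autophagy genes, rose by log2 0.78 (standard error 0.221) and 0.39 (standard error 0.0769).

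The remaining lists were mixed. The share passing was 57.1% for cargo receptors, 71.4% for HOPS with YKT6 and 44.4% for the partners of nucleation, compared with 56.2% of all genes. Among cargo receptors, which tie cargo to LC3, 2 of 7 rose and 2 fell (median -0.03). SQSTM1, or p62, stood at 2546 and 2678 CPM in shCon and 1346 and 1524 CPM in shUBXN1 (54.9% of control, log2 -0.86, standard error 0.0940, adjusted p = 2.68e-06 by edgeR), while OPTN and NBR1 rose by log2 1.07 (standard error 0.0755) and 0.64 (standard error 0.0740). In the HOPS tether with YKT6, 3 of 7 rose and 2 fell (median -0.05). VPS18 rose by log2 0.95 (standard error 0.0767), whereas VPS16, in the same complex, and the SNARE YKT6 had log2 fold changes of -0.49 (standard error 0.0970) and -0.46 (standard error 0.0809) and fell. Among PI3P phosphatases and other partners of nucleation, 1 of 9 rose and 3 fell (median 0.13). DAPK1, a kinase that phosphorylates BECN1, rose by log2 0.77 (standard error 0.0761), and EI24 and TMEM41B, membrane proteins of the endoplasmic reticulum, had log2 fold changes of -0.64 (standard error 0.0878) and -0.41 (standard error 0.0732) and fell.

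Of the 20 genes called, 13 kept their call under all 13 alternatives of scaling, filter, test, GC correction and leaving out a library. The 10 that rose were ULK1, ULK2, RB1CC1, PIK3C3, ATG14, ATG9A, ATG2B, WIPI1, EPG5 and TP53INP2, and the 3 that fell were AMBRA1, WDR45B and SNAP29. ATG13, UVRAG, WDR45, WIPI2, ATG2A, RAB7A and RUBCN lost it under at least 1. None of the 20 changed sign under any of the 13. Of the 17 genes not called, 6 were called under at least 1 alternative, namely PIK3R4, ATG5, ATG16L1, STX17, VAMP8 and WDFY3. Exons of CNTD1, at 29.6 to 49.9 counts a library against 1392 to 1632 for BECN1, cover 12.4% of the exon bases of BECN1, and the genes that cover 14.4% of WDR45 and 19.2% of ATG101 had 0 counts in all 4 libraries. The plot of the 20 called genes over the alternatives shows these ranges.

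**Figure D4:**
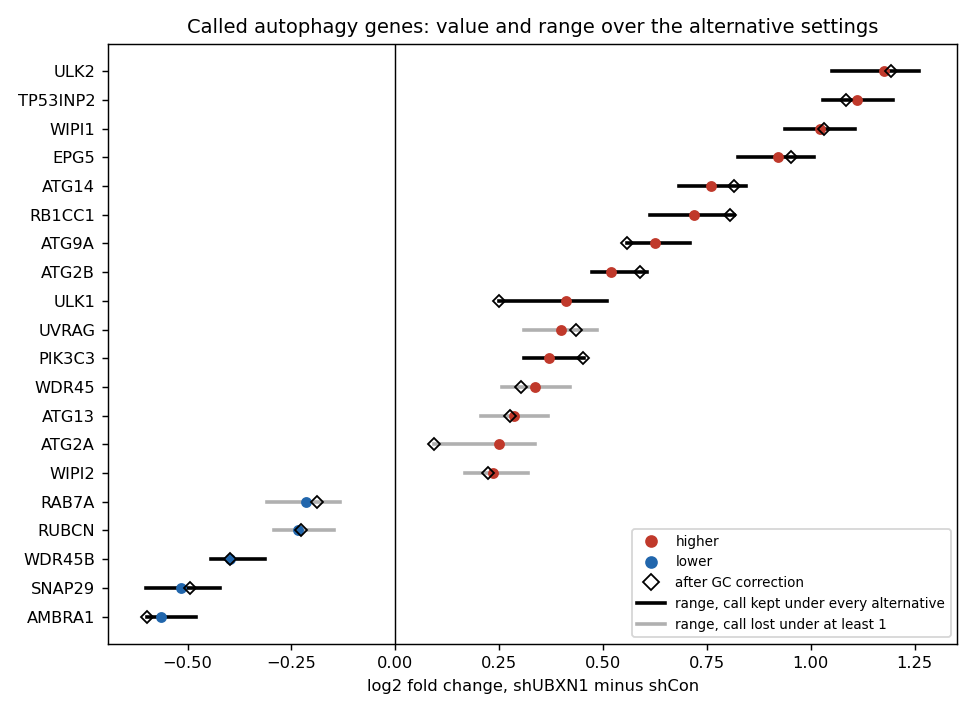
Log2 fold change of the 20 called genes, shUBXN1 minus shCon, as reported (filled point) and after GC correction (open diamond), with a line over the range of the 13 alternatives. Black lines mark the 13 genes whose call held under all of them and grey lines the 7 whose call was lost under at least 1, and no line crosses 0.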

How the data were processed

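The authors deposited expected counts per gene, given to 2 decimals and not normalized, with a gene length for each gene, for 4 RNA-seq libraries. Reads were aligned to GRCh38 with Hisat2 by the study's methods, while the submitters' processing notes list GRCh37, HISAT2 2.0.4 and StringTie 1.3.0. The counting tool's strand setting is not given in the sources used here. Of 61541 gene IDs, 61369 (99.7%) matched GENCODE 44, from which names and GRCh38 positions were taken.

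Counts were rounded, filtered with filterByExpr (minimum count 10), scaled by TMM and tested with edgeR 4.0.16 under R 4.3.3 (16863 genes, 2 residual degrees of freedom, common biological coefficient of variation 0.0711), with adjustment over all genes. TPM was computed from counts and the deposited length. Replicate libraries differed by more than counting error (chi-square over degrees of freedom 3.83 for shCon, 8.42 for shUBXN1). In simulated counts for this comparison over 16863 genes, 89 of 100 genes changed by log2 1 and 56 of 100 changed by log2 0.5 were recovered, with 7 false calls. Only 200 genes were changed there, with a single dispersion for all genes, whereas 56.2% of genes passed in the data. These rates may therefore not hold for the data.

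Alternatives were DESeq2 1.42.0, limma-voom and limma 3.58.1 on log2(TPM + 1), DESeq2 size factors, total count scaling, 2 other filters, a GC correction, a replicate block and leaving out each library. Paralog ratios were also taken from counts and with 0.1 TPM added. All 37 genes were named, as were UBXN1 and, in each other list, the 3 genes with the largest change among those with an adjusted p under 0.05. Among the 37, full statistics were given for changes of at least 0.5 on the log2 scale that passed, and for paralogs. Genes that overlap or copy a member were added to these, as were further genes of the mTORC1 and AMPK list and of the ATG8 and ATG4 list. The members and lists were chosen with earlier results of these data known, and 1 hepatocyte marker is not reported here.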

Additional observations from a re-analysis of the deposited data

How the results depend on the processing

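With 2 libraries a group, calls rest on a spread estimated over all genes. Replicate numbers are shared between groups, but replicate differences correlated by only 0.0775 over genes, so they were not taken as pairs; with the replicate block 16 of the 37 genes rose and 5 fell, and 2 fusion genes rose instead of 1 (VAMP8 added). Total count scaling moved the median of all genes from 0.02 to 0.10 and with it the members' median from 0.15 to 0.24 (0.20 in limma on log2(TPM + 1), 0.18 with at least 10 counts in every library), with 3 members lower. Step medians under it were 0.50 for initiation, 0.38 for membrane supply, 0.018 for conjugation (1 higher) and 0.099 for fusion (2 higher, 1 lower). In limma on log2(TPM + 1), membrane supply had a median of 0.34, conjugation 1 gene higher, and fusion 2 higher and a median of 0.066. With at least 10 counts in every library, the medians were 0.32 for membrane supply and 0.041 for fusion (2 higher). After the GC correction the medians were 0.28, 0.26, 0.019 and -0.085 for initiation, membrane supply, conjugation and fusion (2 higher). Genes at a fold change of 2 numbered 1997 higher and 1027 lower, against 1028 and 524 in limma on log2(TPM + 1) and 1321 higher with at least 10 counts in every library.

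Leaving out 1 library at a time gave 3 to 6 members lower and a members' median of 0.094 to 0.15. The initiation median ran from 0.34 to 0.51 and the nucleation median from -0.012 (without shUBXN1 2) to 0.20. Membrane supply had 3 to 5 genes higher and a median of 0.26 to 0.33. Conjugation had 0 to 1 lower and a median of -0.14 to 0.045. Fusion had 1 to 2 higher, 1 to 3 lower and a median of -0.023 to 0.028. The cause of these shifts was not tested. UBXN1 kept its direction under the alternatives run for it. The 5 paralog ratios kept theirs with 0.1 TPM added. Taken from counts, their changes are the same by construction, and the GC correction was not run on the ratios. Depth limited ATG10 and ATG16L2, at 85 to 162 counts a library.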
